A study of Arabidopsis thaliana with 12 samples.

Results

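The genotype difference of the SNP response asks, gene by gene, whether seedlings of the ap1/cal double mutant changed more or less than wild-type Col-0 seedlings after treatment with the nitric oxide (NO) donor sodium nitroprusside (SNP). For each gene the change from Mock to SNP was taken within ap1/cal and within Col-0 on the scale log2(value + 1), and the Col-0 change was subtracted from the ap1/cal change. This difference is positive where a transcript rose more or fell less in ap1/cal, and negative where it rose less or fell more. A gene entered if the tables of both genotypes listed it and at least 3 of the 12 libraries reached a value of 10, and 20623 genes did so, of 21623 listed in both and 22054 listed in either.

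Whole Arabidopsis thaliana seedlings were collected at 7 days after germination, after 24 h on MS plates that held 1 mM SNP or none (Mock). The 4 groups of 3 libraries each were Col-0 Mock, Col-0 SNP, ap1/cal Mock and ap1/cal SNP. The mutant carries mutations in APETALA1 (AP1) and CAULIFLOWER (CAL), MADS-box transcription factors that give young flower meristems their identity. The Col-0 groups carry neither, and the alleles are not named in the sources used here. Neither gene could check the labels, since AP1 was listed for neither genotype. CAL had values of 2.93 to 8.28 in the 6 ap1/cal libraries and was not listed for Col-0. The sources do not say whether the genotypes were grown and treated together, so a batch and the genotype cannot be told apart. They call the 3 libraries of a condition biological replicates without saying whether they came from separate plates or sowings, so the p-values measure only the spread between these libraries, which may be technical.

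SNP is used to raise NO in plant tissue. NO reacts with protein thiols, and in plants it takes part in defence against pathogens, in the response to low oxygen and in iron uptake by roots. Damaged proteins are bound by small heat shock proteins and refolded by the HSP70, HSP90 and HSP101 chaperones, whose genes are switched on by heat shock transcription factors. Immunity in plants starts at cell surface receptors that recognise microbial patterns or the plant's own danger peptides, passes through kinases and the NADPH oxidase RBOHD, and is relayed in the nucleus by WRKY factors, while intracellular NLR proteins recognise pathogen effectors. Genes of these 2 systems differed between the genotypes in opposite directions.

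Of the 20623 genes, 3006 (14.6%) were called for the difference, which here means a fold of 1.5 or more with p, adjusted in limma by the Benjamini-Hochberg method, below 0.05. By the same rule SNP alone changed 55.9% of the genes in Col-0 (26.9% higher, 29.1% lower) and 62.9% in ap1/cal (29.8% higher, 33.0% lower). The difference of responses was positive in 1568 genes (7.6% of all tested) and negative in 1438 (6.97%). The median difference over all tested genes was −0.02 on the log2 scale. Most called genes moved the same way in both genotypes and further in ap1/cal, with 1221 that rose more and 809 that fell more, 2030 in all. In an alternative the Col-0 responses were first multiplied by 1.18, here called the common slope. That left 899 of this kind, no longer most, among 1227 positive and 1312 negative calls. The slope is that of the first principal component of the 2 genotypes' responses over genes, and not a regression of ap1/cal on Col-0. Without it, smaller numbers rose less (346) or fell less (113) in ap1/cal, and 517 had changes of opposite sign. The genes that rose more had median Col-0 and ap1/cal responses of 1.32 and 2.27, and those that rose less had medians of 2.23 and 1.10. Across genes the ap1/cal response followed the Col-0 response with a principal component slope of 1.18 (r = 0.938, over 20623 genes, which are not independent replicates).

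**Figure D1:**
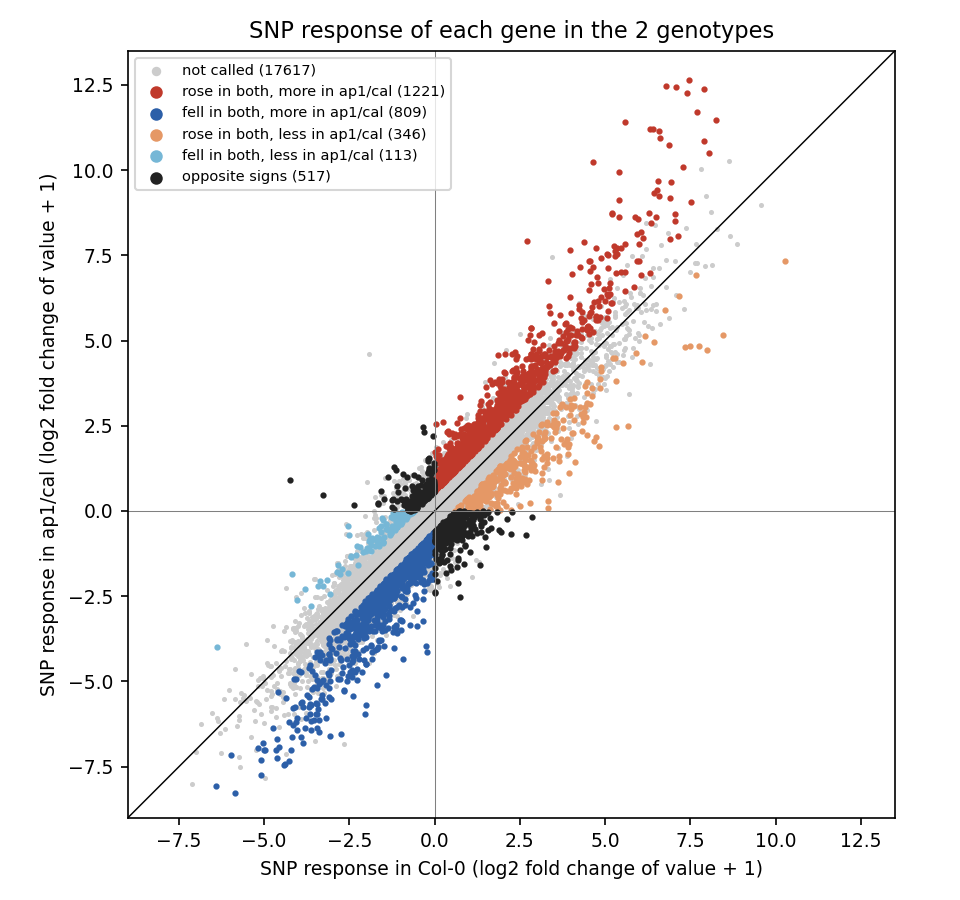
Each point is 1 of the 20623 tested genes, with its SNP response in Col-0 on the x axis and in ap1/cal on the y axis, both as the log2 fold change of value + 1; the diagonal marks equal responses. The 1221 red genes that rose more in ap1/cal reach furthest from the diagonal at the upper right, where the small heat shock protein genes lie, and the 346 orange genes that rose less lie below the diagonal.

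The libraries held 22483300 to 59714500 reads as estimated from the steps between their low values, and the value worth 3 reads ranged from 1.30 to 5.76. Groups with all 3 libraries at or under that floor are named below, and folds against them are lower bounds. The deposited tables were normalized separately for each genotype, so levels of Col-0 and ap1/cal set side by side are a description without a test. The scaling decided the balance of the calls, with 1137 positive and 2064 negative differences after upper-quartile scaling and 873 and 2795 after scaling to one library total. These scalings moved the median difference of all genes to −0.13 and −0.23. Median-ratio factors computed over all 12 libraries gave 1633 and 1379. Green leaf and root markers were present in all 4 groups, 3 of the 9 seed storage markers and 4 of the 10 flower organ markers passed the filter, and the seed storage marker CRA1 averaged 4.21 in Col-0 Mock and 88.8 in ap1/cal Mock.

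The gene lists used below were compared with all tested genes by their counts of calls and their medians. Of all tested genes 7.6% were called positive and 6.97% negative, with a median difference of −0.02. Among these lists the highest medians were those of the small heat shock proteins, the larger chaperones, the chloroplast-encoded transcripts and the mitochondrial dysfunction genes. The lowest were those of the extensins, the pattern-triggered immunity genes, the root markers, the WRKY factors and the cysteine-rich receptor-like kinases. In bulk seedlings a change of RNA per cell and a change in the number of cells of a type cannot be told apart.

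**Figure D2:**
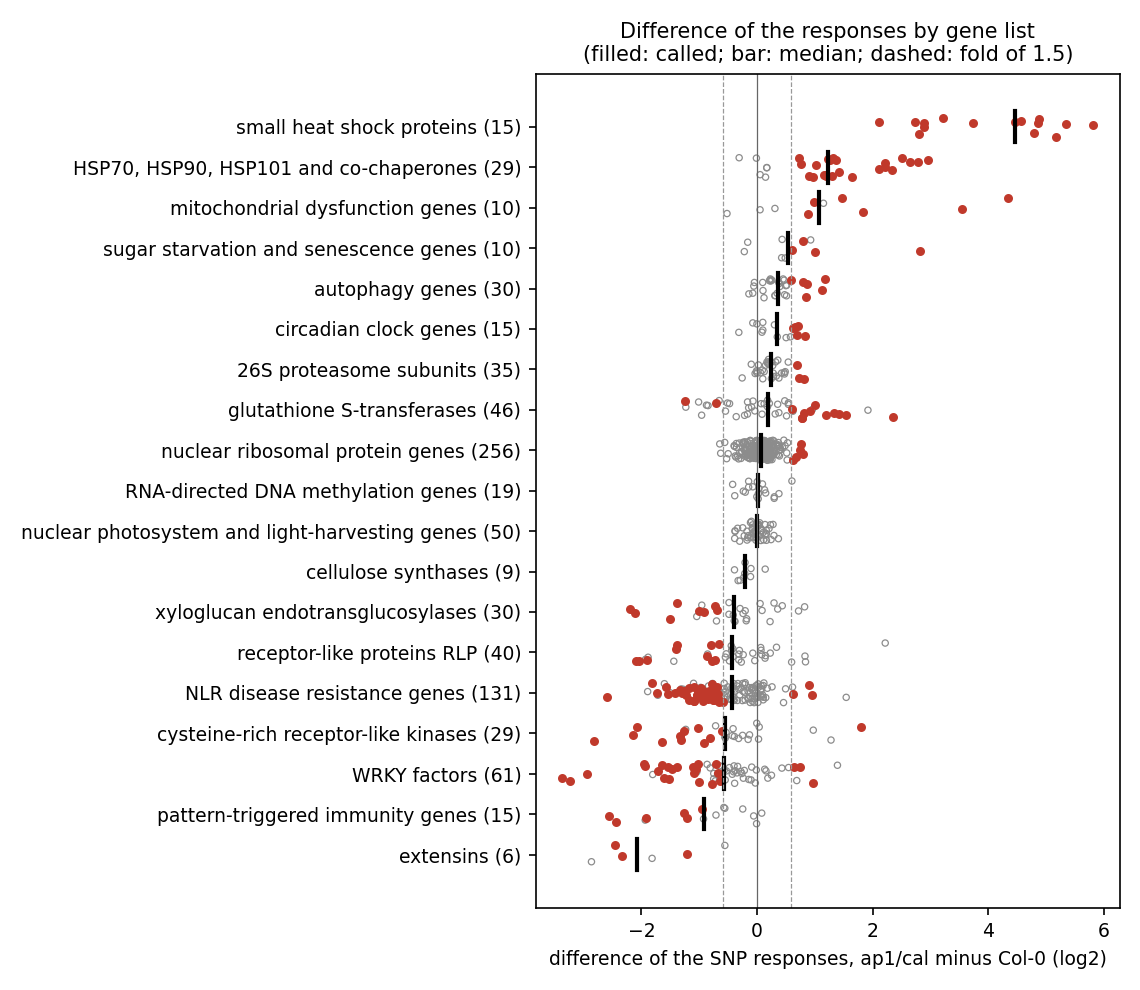
Each circle is 1 gene of the list named at the left (number tested in parentheses), at its difference of the SNP responses on the log2 scale, ap1/cal minus Col-0; filled circles were called, the vertical bar is the list's median and the dashed lines mark a fold of 1.5. All 15 small heat shock protein genes are called on the positive side, while the 50 nuclear photosystem and light-harvesting genes gather around 0 with none called.

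All 15 small heat shock protein genes responded more in ap1/cal. These proteins bind unfolding proteins and keep them from aggregating. Each was called, where 7.6% of all tested genes were called positive, and the median difference was 4.47 (range 2.11 to 5.81). Their median response on the log2 scale was 11.2 in ap1/cal against 6.58 for Col-0. The cytosolic class II and III genes had the highest median (5.17, 3 genes), followed by the class I genes (4.15, 6 genes) and the organelle forms (3.85, 6 genes).

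The upstream sequences of AT1G53540, HSP17.4 and HSP21 are shown because these genes responded far more in ap1/cal and carry copies of the heat shock element, the inverted repeat of GAA and TTC that heat shock factors bind. Each window holds the 250 bases before the RefSeq gene start, written 5′ to 3′ on the gene's strand, and capitals mark every match to GAANNTTC or TTCNNGAA. Both patterns read the same on both strands, and matches may overlap. The windows lie at chr1:19980049-19980298 (plus strand), chr3:16984868-16985117 (minus strand) and chr4:13819972-13820221 (minus strand) of TAIR10.1, and the first also overlaps another annotated gene.
AT1G53540: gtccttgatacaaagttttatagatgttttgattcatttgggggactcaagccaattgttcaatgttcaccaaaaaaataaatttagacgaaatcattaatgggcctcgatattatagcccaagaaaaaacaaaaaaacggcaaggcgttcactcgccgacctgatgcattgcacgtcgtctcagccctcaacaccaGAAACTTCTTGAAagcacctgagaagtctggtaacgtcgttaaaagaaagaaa
HSP17.4: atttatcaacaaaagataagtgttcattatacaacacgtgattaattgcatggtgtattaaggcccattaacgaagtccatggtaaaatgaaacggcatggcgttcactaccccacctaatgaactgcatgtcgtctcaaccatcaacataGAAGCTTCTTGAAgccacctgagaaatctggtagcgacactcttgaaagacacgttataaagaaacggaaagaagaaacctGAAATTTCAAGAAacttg
HSP21: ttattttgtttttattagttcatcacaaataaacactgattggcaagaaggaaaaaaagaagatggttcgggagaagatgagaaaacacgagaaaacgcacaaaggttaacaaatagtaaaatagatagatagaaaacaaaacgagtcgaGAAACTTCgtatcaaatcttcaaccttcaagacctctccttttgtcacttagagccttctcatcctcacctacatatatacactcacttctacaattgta

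AT1G53540 and HSP17.4 hold the longer element of 3 units, which is GAANNTTC followed by NNGAA or TTCNNGAA followed by NNTTC, so that both patterns overlap in it. It occurred in 2 of the 15 small heat shock protein windows (13.3%) and in 0.43% of the 20486 windows of tested genes. GAANNTTC was in 4 of the 15 (26.7%) against 9.32% of all windows, and TTCNNGAA in 5 (33.3%) against 7.57%. In the HSP70, HSP90, HSP101 and co-chaperone list the shares were 3.45% and 10.3% of 29 windows. A match describes these letters only. Neither pattern was found in the windows of AT1G07400, HSP18.2, AT2G29500, AT1G59860, HSP17.6II, AT1G54050, HSP23.6-MITO and ATHSP22.0.

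AT1G53540, a class I protein gene and the one with the largest difference chosen by the naming rule, had values of 1259, 340.1 and 655 in the Mock and 34291, 34360 and 27013 in the SNP libraries of Col-0. In ap1/cal it had 42.5, 19.5 and 51.1 in Mock and 92448, 115750 and 87390 in SNP. The Mock libraries of ap1/cal thus lay below all Col-0 Mock libraries, and its SNP libraries above all Col-0 SNP libraries. The difference was 5.81 (SE 0.56, limma adjusted p = 7.03e-05).

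HSP17.6II and HSP17.6A, both class II genes and neighbours on chromosome 5, behaved alike. HSP17.6II went from 649, 183 and 384 to 52870, 50065 and 43222 in Col-0 and from 17.58, 13.9 and 25.1 to 103350, 119040 and 98145 in ap1/cal. Its SNP values in ap1/cal were all above those in Col-0, and its Mock values all below. The differences were 5.35 (SE 0.47, limma adjusted p = 6.42e-05) for HSP17.6II and 5.17 (SE 0.48, adjusted p = 7.03e-05) for HSP17.6A.

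The chloroplast protein HSP21 rose from 73.3, 34.8 and 43.6 to 4469.6, 4224 and 3168 in Col-0. In ap1/cal it rose from 4.40, 2.17 and 6.75 to 11000, 15172 and 10302. Its difference was 4.88 (SE 0.44), close to that of HSP23.6-MITO (4.86), a protein of mitochondria, and of ATHSP22.0 (4.47). HSP18.2 went from 217, 230.2 and 158 to 9598, 9371 and 6742 in Col-0. In ap1/cal it rose from 90.8, 71.2 and 72.3 to 37431, 57948 and 39740, a difference of 3.73 (SE 0.27, limma adjusted p = 6.42e-05). AT5G51440 had the smallest difference of the 15, 2.11 (SE 0.29, adjusted p = 0.000319). HSP17.4 (4.57) overlaps another gene and shares sequence with a further copy, so its reads may be divided.

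In all 15 genes every Col-0 Mock library lay above every ap1/cal Mock library, and every ap1/cal SNP library above every Col-0 SNP library. Over all 20623 tested genes the separation in Mock held for 3393 and that in SNP for 4957. The median distance between the genotypes, ap1/cal minus Col-0, was −2.72 in Mock and 1.62 in SNP. The Mock distance was the larger in 11 of the 15, against 5611 of all tested genes. Col-0 Mock replicate 1 was the highest Col-0 Mock library in 13 of the 15, against 8333 of all tested genes. The list's median was 3.67 without that library and 5.02 without Col-0 Mock replicate 2, and all 15 genes were called in both cases.

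**Figure D3:**
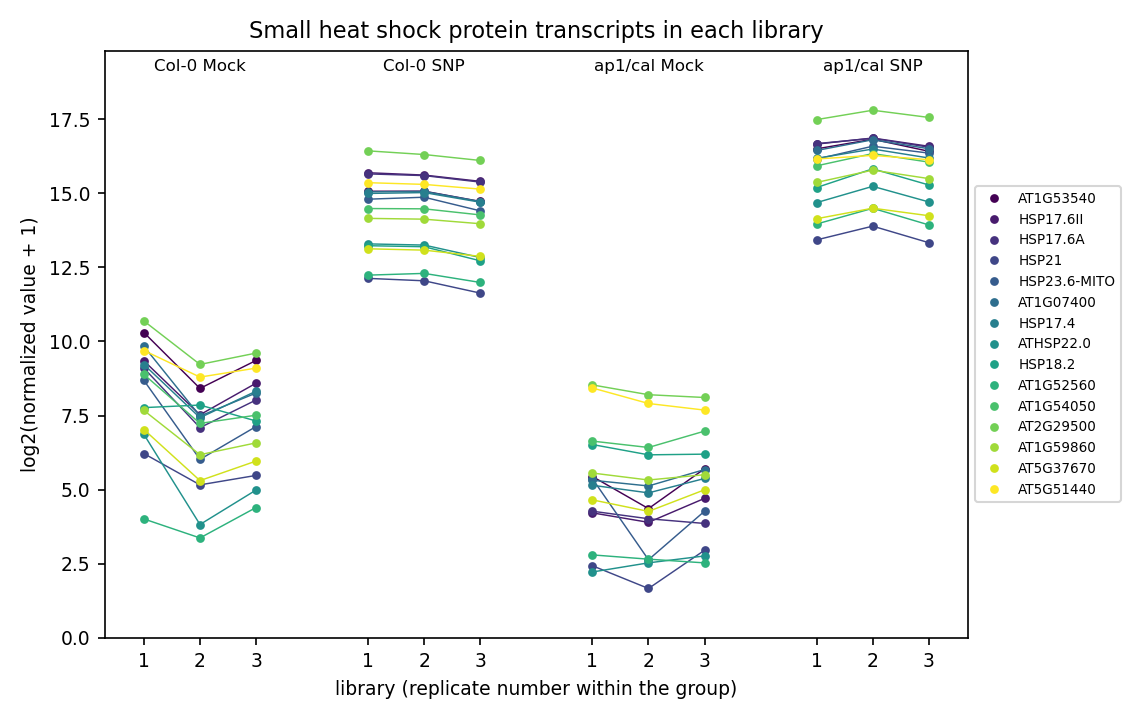
The y axis gives log2(normalized value + 1) of the 15 small heat shock protein genes in each library, ordered on the x axis by group and replicate number; lines only join the points of 1 gene within a group. In every gene the 3 ap1/cal Mock points lie below the Col-0 Mock points and the 3 ap1/cal SNP points above the Col-0 SNP points.

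The larger chaperones followed with smaller differences. Of 29 genes for HSP70, HSP90, HSP101 and their co-chaperones, 23 were called positive and none negative, and the median difference was 1.23. Hsp70b, a heat-induced cytosolic HSP70, rose from 905, 226 and 362 to 109590, 105410 and 85633 in Col-0 and from 138, 145 and 124 to 226900, 289400 and 239490 in ap1/cal. Its SNP libraries were all higher in ap1/cal and its Mock libraries all lower, and the difference was 2.96 (SE 0.48, limma adjusted p = 0.00104). HSP101, the disaggregase that pulls proteins out of aggregates, had a difference of 2.65 (SE 0.37, adjusted p = 0.000387), and the peptidyl-prolyl isomerase AT5G48570 one of 2.78 (SE 0.30, adjusted p = 9.42e-05).

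HSP90.1, the heat-induced cytosolic HSP90, averaged 2048 ± 503 in Mock and 97695 ± 10134 in SNP for Col-0, and 1094 ± 246 and 245110 ± 39746 for ap1/cal (SD, n = 3 each). Its difference was 2.22 (limma adjusted p = 0.000143). The co-chaperone gene Hop3, chosen after its values were seen, reached SNP means of 24592 for Col-0 and 64058 for ap1/cal and was called (adjusted p = 0.000167), while its paralog Hop1, which SNP left near its Mock level in both genotypes, had −0.31 (adjusted p = 0.38) and was not called. The chaperone list differed most in SNP, with a median distance between the genotypes of 0.92 there and −0.31 in Mock. Its median fell to 0.75 when the Col-0 responses were first multiplied by the common slope of 1.18. HSP101 and Hop3 share their loci with opposite-strand genes, and use of the strand in counting is not stated.

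Heat shock transcription factors were split. Of 20 tested, 6 were called positive and 1 negative, with a median of 0.07 that ran from −0.06 to 0.335 when 1 library was left out. HSFA2, which sustains the heat response, went from 241, 64.2 and 71.4 to 10363, 10942 and 8339.9 in Col-0 and from 29.8, 18.7 and 35.6 to 20028, 27600 and 22082 in ap1/cal. All ap1/cal Mock libraries were below and all ap1/cal SNP libraries above their Col-0 counterparts, and the difference was 3.13 (SE 0.54, limma adjusted p = 0.00152). HSF4 (1.17, adjusted p = 0.000164) and AT-HSFB2B (1.21, adjusted p = 0.000924), class B factors, and HSFA1D (1.12, adjusted p = 0.000505), a master activator, were also higher. HSFC1 had −0.94 but shares most of its exon sequence windows with another gene. AT-HSFB2B shares its locus with an opposite-strand gene. In the endoplasmic reticulum list 2 of 14 genes were called positive and none negative, with a median of −0.17, or 0.03 and no call with the common slope. Negative calls appeared without Col-0 Mock replicate 2 (4, beside 2 positive) and with upper-quartile (2) or library-size scaling (3), each scaling beside 1 positive call.

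Genes switched on when mitochondria fail also rose further in ap1/cal. Of 10 mitochondrial dysfunction genes 6 were called positive and none negative, and the median difference was 1.07. UGT74E2, a glucosyltransferase for the auxin IBA, had 3722, 999 and 1893 in the Mock and 80002, 71882 and 61650 in the SNP libraries of Col-0, against 292, 253 and 469 and 136420, 152980 and 131890 in ap1/cal. Neither its Mock nor its SNP libraries overlapped between the genotypes, and the difference was 3.54 (SE 0.50, limma adjusted p = 0.000383). AOX1D, an alternative oxidase, had 56.9, 6.58 and 19.4 in the Mock and 2404, 2172 and 1591 in the SNP libraries of Col-0. It had 0.733, 0.434 and 1.93 in ap1/cal Mock, which is at or under the floor, and 3096, 4102 and 4484 in ap1/cal SNP, at least 1827-fold higher than the floor of 3 reads per library. Its fitted difference was 4.35 (SE 0.75, adjusted p = 0.0014) and at least 3.69 with ap1/cal Mock set to that floor.

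AT2G21640 (1.83, limma adjusted p = 0.000994) and NAC13 (1.47, adjusted p = 0.000367), a factor that activates this set and shares its locus with an opposite-strand gene, were called as well. NAC017, which acts upstream in the same pathway, had a difference of 0.05 (adjusted p = 0.80), and BCS1 had −0.52 (adjusted p = 0.12). Each of the 10 genes had a lower mean in ap1/cal Mock than in Col-0 Mock, and 8 had a higher mean in ap1/cal SNP. Over all 20623 tested genes 12171 were lower in ap1/cal Mock and 8900 higher in ap1/cal SNP. The median of the list was 0.30 with the common slope (2 positive and 1 negative call), 0.75 without Col-0 Mock replicate 1 and 1.33 without Col-0 Mock replicate 2.

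Among genes of the low oxygen response 4 of 16 were called positive and none negative, with a median of 0.27 that fell to 0.06 with library-size scaling and −0.01 with the common slope. A replicate block within ap1/cal, which pairs its Mock and SNP libraries by number and was chosen after seeing the data, gave 5 positive and 1 negative call. ERF71, a group VII ethylene response factor, rose from 60.8, 8.46 and 20.2 to 5444, 4749 and 4212 in Col-0 and from 4.40, 0.868 and 0.965 to 8396, 9129 and 9584 in ap1/cal. Its Mock and SNP libraries were both fully separated by genotype, in opposite directions, with a difference of 4.01 (SE 0.74, limma adjusted p = 0.00221). Replicates 2 and 3 of ap1/cal Mock lay under the value worth 3 reads. Across the alternatives the difference of ERF71 ran from 2.425 to 4.66. PDC2, a pyruvate decarboxylase of fermentation, had 1.06 (adjusted p = 0.00172). The lactate dehydrogenase AT4G17260 had 0.83 (adjusted p = 0.00212).

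The plasma membrane transporter ABCG40 and the aromatic alcohol dehydrogenase ELI3-2 came next in size among the genes the naming rule gave for this pattern. ABCG40 had 455, 39.5 and 153 in Col-0 Mock, a spread of more than 10-fold between replicates, and 17808, 16112 and 12966 in Col-0 SNP. It had 5.86, 4.78 and 0 in ap1/cal Mock and 16437, 20705 and 20589 in ap1/cal SNP. The SNP libraries of the 2 genotypes overlapped while the Mock libraries did not, and the difference of 5.68 (SE 1.07, limma adjusted p = 0.00241) lay mostly in Mock. Replicate 3 of ap1/cal Mock, at 0, lay under the value worth 3 reads. Across the alternatives the difference of ABCG40 ran from 3.85 to 6.58. ELI3-2 rose from 76.4, 19.7 and 31.5 to 690.3, 1369 and 849 in Col-0. In ap1/cal it was at or under the floor in Mock, 0, 0.434 and 1.93, and reached 1818, 2003 and 1966 in SNP, at least 905-fold higher. The fitted difference was 5.58 (SE 0.63, adjusted p = 0.000126) and at least 4.66 with the floor.

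Glutathione S-transferases, which conjugate toxic compounds to glutathione, gave 11 positive and 2 negative calls of 46, but 9 and 7 with upper-quartile scaling, 8 and 7 with library-size scaling and 14 and 7 with quality weights. Leaving out Col-0 Mock replicate 1 gave 9 and 5, leaving out ap1/cal Mock replicate 3 gave 8 and 5, and the common slope gave 2 and 4. Their median was 0.18 and turned to −0.03 with library-size scaling and −0.04 with the common slope. GSTU4 had Mock values of 293, 73.3 and 133 in Col-0 against 26.4, 28.7 and 32.8 in ap1/cal, and its SNP means were 5857 for Col-0 and 6283 for ap1/cal. Its difference of 2.35 (SE 0.47, limma adjusted p = 0.00359) therefore came with well separated Mock libraries and overlapping SNP libraries. GSTU24 (1.54, adjusted p = 0.000845) and GSTL1 (1.42, adjusted p = 0.00125) followed. Sulfur assimilation gave 5 positive calls of 11 with a median of 0.24, which became 0.02 with library-size scaling (3 positive and 1 negative call) and −0.26 with the common slope (2 negative calls). The block within ap1/cal gave 5 positive and 1 negative call. APR3, the reductase of activated sulfate, had 1.01 (adjusted p = 0.000887) and shares its locus with an opposite-strand gene.

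Genes of cellular recycling shifted in the same direction by smaller steps. Of 30 autophagy genes 6 were called positive and none negative, and the median was 0.36, or 0.15 with library-size scaling and 0.21 with the common slope. ATG8E, a ubiquitin-like protein that decorates autophagosomes, rose from 1807, 1248 and 1878 to 5052, 4558 and 4292 in Col-0 and from 1585, 1666 and 2144 to 11009, 12026 and 11638 in ap1/cal. The Mock libraries overlapped, all 3 ap1/cal SNP libraries were higher, and the difference was 1.18 (SE 0.20, limma adjusted p = 0.00145). Its relatives ATG8B (1.13, adjusted p = 0.000362) and ATG8H (0.87, adjusted p = 0.00275) were also called. Of the 30 autophagy genes 28 were higher in ap1/cal than in Col-0 after SNP, and 14 were lower in ap1/cal in Mock. Over all 20623 tested genes 8900 were higher in ap1/cal after SNP and 12171 lower in Mock.

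Of the 10 sugar starvation and senescence genes 4 were called positive and none negative, with a median of 0.54. PPH, a pheophytinase that breaks down chlorophyll, averaged 1044 and 1714 in Col-0 and 929 and 2650.1 in ap1/cal (Mock, then SNP), a difference of 0.80 (SE 0.08, limma adjusted p = 9.28e-05). The senescence factor NAC6 had 1.01 (adjusted p = 0.00921). SAG13 was at or under the floor in ap1/cal Mock and lower in ap1/cal in SNP too, and its fitted difference of 2.81 (adjusted p = 0.00306) was at least 1.78 with the floor. Of 35 proteasome subunits 3 were called, all positive (8.57%, against 7.6% of all tested genes), with RPN13 at 0.82 (adjusted p = 0.000679) and PBC2 at 0.73 (adjusted p = 0.00108), and the list's median was 0.24, or 0.13 after upper-quartile scaling. Scaling to one library total gave 0.03 and 1 call.

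Circadian clock genes gave 5 positive and no negative calls of 15, with a median of 0.35. Library-size scaling gave 1 positive call and a median of 0.14, and the common slope 2 positive and 1 negative call and a median of 0.15. CCA1, a morning factor, rose from a mean of 282 to one of 6629 in Col-0, while ap1/cal went from 204 to 8455, a difference of 0.82 (SE 0.13, limma adjusted p = 0.000926) that was −0.01 with the common slope. PRR7 averaged 4929.9 and 3406 in Col-0 and 5024 and 5624 in ap1/cal (Mock, then SNP), a difference of 0.69 (adjusted p = 0.000973). Abscisic acid genes gave 3 positive and 1 negative call of 18, and 5 positive calls without Col-0 SNP replicate 2. Library-size scaling left 1 positive call. HAB1, a phosphatase that holds abscisic acid signalling in check, had 1.02 (SE 0.10, adjusted p = 7.03e-05), and the cold and drought gene LTI78 had −0.90 (adjusted p = 0.0114). GA3, the ent-kaurene oxidase of gibberellin synthesis, was the single call of 9 gibberellin genes, at 1.27 (SE 0.11, adjusted p = 6.42e-05), and the block within ap1/cal gave 2.

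Immunity genes stood on the other side. Of 15 pattern-triggered immunity genes 6 were called negative, where 6.97% of all tested genes were, and none positive. The median difference was −0.92, and 14 of the 15 values were below 0. The list's median response was 0.54 in ap1/cal against 1.52 for Col-0. The median distance between the genotypes was 0.00 in Mock and −0.90 in SNP. The Mock distance was the larger in 1 of the 15, against 5611 of all 20623 tested genes. These medians describe the list as a whole, since all ap1/cal Mock libraries lay above all Col-0 Mock libraries for LYK5 and RBOHD. Every SNP library of ap1/cal lay below every SNP library of Col-0 in 11 of the 15, against 5777 of all 20623 tested genes.

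The windows of PROPEP3 and WRKY30 are shown because these genes responded far less in ap1/cal and are rich in the W-box core that WRKY factors bind. They hold the 250 bases before the RefSeq gene start on the gene's strand, and capitals mark TTGACC or TTGACT on either strand, read as GGTCAA or AGTCAA on the other. They lie at chr5:25939312-25939561 (plus strand) and chr5:8154711-8154960 (minus strand) of TAIR10.1.
PROPEP3: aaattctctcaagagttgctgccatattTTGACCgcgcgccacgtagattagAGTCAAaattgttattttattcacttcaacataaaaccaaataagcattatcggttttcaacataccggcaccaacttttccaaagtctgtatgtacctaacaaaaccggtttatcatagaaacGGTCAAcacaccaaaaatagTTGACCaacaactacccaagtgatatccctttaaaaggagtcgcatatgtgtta
WRKY30: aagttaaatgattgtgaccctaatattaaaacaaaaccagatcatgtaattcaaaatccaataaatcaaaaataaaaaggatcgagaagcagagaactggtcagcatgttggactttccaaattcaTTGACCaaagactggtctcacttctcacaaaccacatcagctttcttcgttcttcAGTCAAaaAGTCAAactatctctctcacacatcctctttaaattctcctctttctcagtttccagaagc

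PROPEP3 holds 4 matches and WRKY30 holds 3. A W-box core was found in 10 of the 15 pattern-triggered immunity windows (66.7%), in 55.2% of 29 cysteine-rich receptor-like kinase windows, in 41.2% of 131 NLR windows and in 31.1% of 61 WRKY windows, against 28.7% of 20486 windows of tested genes. Of the called genes of the immunity list, LYK4, LYK5 and PEPR2 hold none. Of those not called, BAK1, BIK1, CERK1, PEPR1, PROPEP1, FRK1 and YLS9 hold 1 or 2, and FLS2 and EFR hold none.

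The danger peptides and their receptors came first in the pathway. PROPEP3, the precursor of a peptide released on wounding, rose from 7.02, 13.2 and 17.0 to 364, 265 and 389.6 in Col-0 and from 13.9, 20.8 and 8.68 to 84.1, 46.4 and 69.1 in ap1/cal. The Mock libraries overlapped and the 3 ap1/cal SNP libraries all stayed below the Col-0 ones, with a difference of −2.57 (SE 0.49, limma adjusted p = 0.00272). PROPEP2 had −2.43 (adjusted p = 0.0168) at mean values of at most 22.6. PEPR2, which binds these peptides, had −1.21 (adjusted p = 0.00931) but shares its locus with an opposite-strand gene.

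LYK5 is the receptor that binds chitin of fungal walls. It rose from 80.3, 76.1 and 59.8 to 316, 293 and 309 in Col-0, while in ap1/cal it was at 168, 103 and 117 in Mock and 137, 121 and 169 in SNP. Its ap1/cal SNP libraries thus overlapped its own Mock libraries, and all 3 were below the Col-0 SNP libraries. The difference was −1.92 (SE 0.26, limma adjusted p = 0.000316). LYK4, its close relative, had −1.27 (adjusted p = 0.00398). CERK1, the kinase that signals with them, had −0.25 (adjusted p = 0.20) and was not called.

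RBOHD, which makes the burst of reactive oxygen, had 852, 794 and 817 in the Mock and 6616, 6317 and 6669 in the SNP libraries of Col-0. It had 1112, 963 and 939 in ap1/cal Mock and 4424, 3526 and 4565 in ap1/cal SNP. All ap1/cal SNP libraries were below and all ap1/cal Mock libraries above their Col-0 counterparts, and the difference was −0.94 (SE 0.13, limma adjusted p = 0.000418). The co-receptor BAK1 and the kinase BIK1 rose to nearly the same values in both genotypes. Their differences were 0.08 (SE 0.12, adjusted p = 0.66) and −0.01 (SE 0.15, adjusted p = 0.98). The flagellin receptor FLS2 had −0.57 (adjusted p = 0.16) and EFR had −0.06 (adjusted p = 0.90), neither called. BAK1, FLS2 and EFR share their loci with opposite-strand genes.

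Of 61 WRKY factors 21 were called negative and 3 positive, with a median of −0.57. WRKY30 had the largest difference among genes that rose less by the naming rule. It was at or under the floor in Col-0 Mock, 1.56, 1.88 and 1.61, and at 3624, 2880.2 and 3421 in Col-0 SNP, at least 1309-fold higher. In ap1/cal it was at 5.86, 1.30 and 0.965 in Mock and 836, 212 and 706 in SNP, all 3 below the Col-0 SNP libraries. The fitted difference was −2.94 (SE 0.69, limma adjusted p = 0.00865), or −2.55 with Col-0 Mock at the floor.

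WRKY18 and WRKY40, paired repressors of defence that were picked after their values were seen, rose in both genotypes. WRKY18 went from 172, 166 and 171 to 3251, 3276 and 3982 in Col-0 and from 190.1, 174 and 201 to 1613, 1034 and 1212 in ap1/cal, so that its ap1/cal SNP libraries were all lower. The differences were −1.61 (SE 0.19, limma adjusted p = 0.000159) and −1.71 for WRKY40 (SE 0.34, adjusted p = 0.00335). WRKY33, an activator of camalexin synthesis, averaged 766 and 30720 in Col-0 and 1449.6 and 20197 in ap1/cal (Mock, then SNP), a difference of −1.52 (adjusted p = 9.28e-05).

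WRKY31 and WRKY72 were unlike these, since SNP left them near their Mock level in Col-0 and lowered them in ap1/cal. WRKY31 was at 90.5, 104 and 119 in the Mock and 103, 89.1 and 105 in the SNP libraries of Col-0. It was at 140.4, 136 and 114 in Mock and 36.9, 33.4 and 25.3 in SNP in ap1/cal. The differences were −1.94 (SE 0.24, limma adjusted p = 0.000192) and, for WRKY72, −1.96 (SE 0.28, adjusted p = 0.000432). WRKY53, which promotes leaf senescence, had the largest difference of the family, −3.37 (adjusted p = 8.50e-05), and WRKY38 had −3.23 (adjusted p = 0.00585) at mean values of at most 39.5. WRKY33, WRKY40 and WRKY53 each share their loci with opposite-strand genes.

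**Figure D4:**
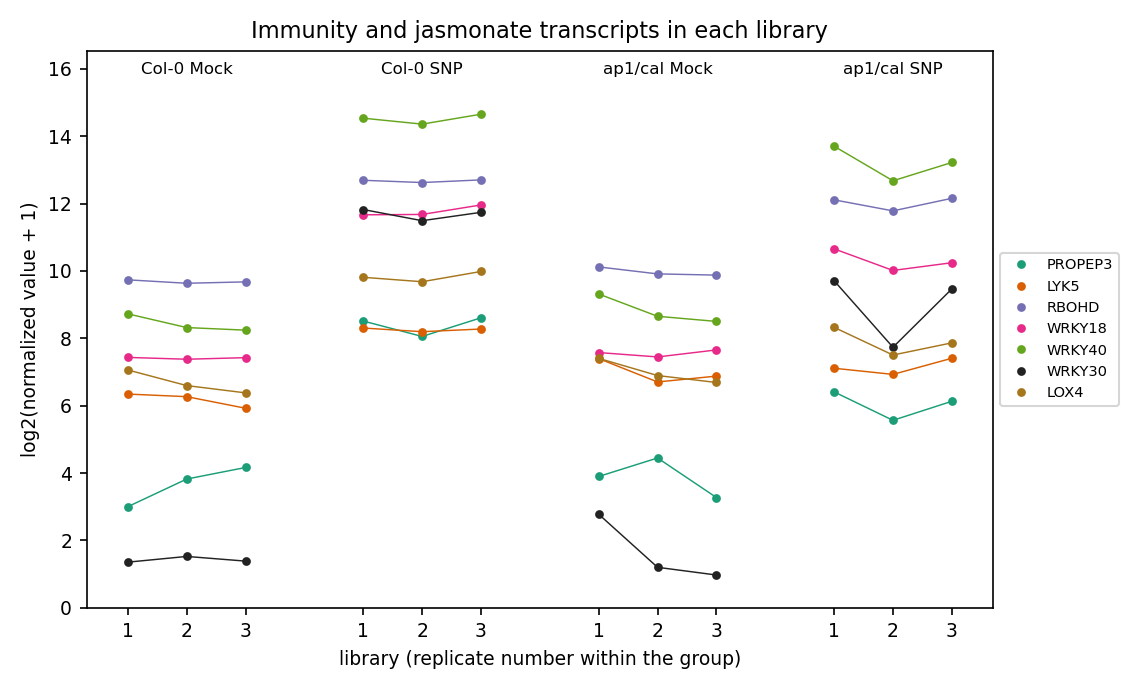
The y axis gives log2(normalized value + 1) of 7 immunity and jasmonate genes in each library, ordered on the x axis by group and replicate number; lines only join the points of 1 gene within a group. The ap1/cal SNP points of each gene lie below its Col-0 SNP points. LYK5 in ap1/cal stays near its Mock level, and the ap1/cal Mock points of LYK5 and RBOHD all lie above their Col-0 Mock points.

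Jasmonate genes gave calls in both directions. Of 26, 6 were called positive and 4 negative, or 3 and 6 with library-size scaling and 4 and 6 with the common slope. The 4 negative ones all belong to jasmonate synthesis. LOX4, a lipoxygenase, rose from 133, 95.8 and 82.4 to 898, 819.6 and 1012 in Col-0 and from 168, 118 and 102 to 319.8, 181 and 232 in ap1/cal. Its Mock libraries overlapped and its ap1/cal SNP libraries were all lower, with a difference of −2.24 (SE 0.32, limma adjusted p = 0.000461). AOC3, an allene oxide cyclase, had −1.54 (adjusted p = 0.000331), LOX3 had −1.02 (adjusted p = 0.00377) and OPCL1 had −0.72 (adjusted p = 0.00782). On the positive side stood the repressors JAZ10 (1.35, adjusted p = 0.02), TIFY7 (0.88, adjusted p = 0.00302) and JAZ12 (0.72, adjusted p = 0.000478). The other positive calls were synthesis genes as well, AOC1 (1.14, adjusted p = 0.0349), AOC2 (0.90, adjusted p = 0.00512) and LOX2 (0.84, adjusted p = 0.043). The calls of AOC1 and LOX2 were lost without 7 and 10 of the 12 libraries. JAZ10 and JAZ12 share their loci with opposite-strand genes. MYB51, an activator of indole glucosinolate synthesis, was the single call of 16 glucosinolate and camalexin genes, at −1.59 (SE 0.25, adjusted p = 0.000886). That list had 2 negative calls with the block within ap1/cal and 4 with library-size scaling.

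Called genes of the receptor families were nearly all negative. Of 131 NLR disease resistance genes 43 were called negative and 3 positive, with a median of −0.44. AT1G63860 had 142, 122 and 137 in the Mock and 273, 280.0 and 326 in the SNP libraries of Col-0, and 211, 172 and 181 and 157, 129 and 128 in ap1/cal. It rose in Col-0 and not in ap1/cal, with a difference of −1.57 (SE 0.18, limma adjusted p = 0.000128). AT4G09420 fell in both, to SNP means of 48.8 for Col-0 and 14.1 for ap1/cal, with a difference of −1.73 (adjusted p = 0.0119). RPM1, which recognises effectors of Pseudomonas syringae, had −1.32 (adjusted p = 0.00344) and overlaps another gene.

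Among cysteine-rich receptor-like kinases 11 of 29 were called negative and 1 positive, with a median of −0.55. CRK14 averaged 32.9 and 101 in Col-0 and 27.0 and 21.2 in ap1/cal (Mock, then SNP), a difference of −2.15 (SE 0.58, limma adjusted p = 0.0178). CRK36 was the exception, with a rise to 364 in Col-0 and to 571 in ap1/cal and a difference of 1.80 (adjusted p = 0.0124). Of 40 receptor-like proteins 10 were called negative and none positive, with a median of −0.43. RLP31 had 328, 347 and 311 in the Mock and 523, 459.7 and 474 in the SNP libraries of Col-0, and it fell from 415, 380.3 and 475 to 245, 230.3 and 238 in ap1/cal. The SNP libraries of the genotypes did not overlap, with a difference of −1.39 (SE 0.14, adjusted p = 7.13e-05). Of 14 salicylic acid and PR genes 3 were called negative, among them PR5 at −1.68 (adjusted p = 0.0147), and PAD4 had 0.03 (adjusted p = 0.92). That list's median was −0.40, or −0.27 with groups at the floor set to it, and 1 of its calls was left without Col-0 SNP replicate 1. Without Col-0 SNP replicate 3 the receptor-like proteins had 6 negative calls, and with the common slope 6 negative and 1 positive.

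Called genes of 3 cell wall families were negative with 1 exception, while most members were not called. Of 6 extensins, structural glycoproteins of the wall, 3 were called negative and none positive, with a median of −2.08. There were 2 negative calls without Col-0 SNP replicate 3 and 5 without ap1/cal SNP replicate 3 or with the block within ap1/cal. The common slope left 1 call and a median of −1.15. EXT13 fell from 847, 748 and 711 to 19.2, 32.5 and 40.1 in Col-0 and from 1388, 1396 and 1292 to 5.03, 6.65 and 25.1 in ap1/cal. Its ap1/cal Mock libraries were all higher and its SNP libraries overlapped, with a difference of −2.34 (SE 0.59, limma adjusted p = 0.0124). Xyloglucan endotransglucosylases, which cut and rejoin wall polymers, gave 8 negative and no positive calls of 30, with XTH14 at −1.50 (adjusted p = 0.00843) and XTH33 at −2.19 (adjusted p = 0.00207). Their negative calls numbered 5 without Col-0 SNP replicate 3, and their median was −0.40, or −0.34 with groups at the floor set to it and −0.21 with the common slope. Of 18 alpha-expansins, which loosen the wall, 5 were called negative and 1 positive, with 3 negative and 3 positive calls without Col-0 SNP replicate 2 and 3 negative calls without Col-0 Mock replicate 3, ap1/cal Mock replicate 3 or ap1/cal SNP replicate 2. The common slope gave 2 negative and 4 positive calls. EXPA2 was the 1 positive call without that slope, at 2.12 (adjusted p = 0.00622), and it shares its locus with an opposite-strand gene. None of 9 cellulose synthases was called by limma, with 2 at an unadjusted p below 0.05, and their median was −0.21.

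EXPA7, which is used by growing root hairs, fell from 384, 397 and 347 to 29.6, 17.5 and 29.2 in Col-0 and from 499.6, 481 and 412 to 2.05, 1.66 and 7.68 in ap1/cal. All ap1/cal SNP libraries were below all Col-0 SNP libraries, and the difference was −2.94 (SE 0.50, limma adjusted p = 0.00138). EXPA7 shares its locus with an opposite-strand gene. PRP3, a wall protein of root hairs, fell from a mean of 1182 to one of 63.1 in Col-0, while ap1/cal went from 1922 to 15.5, with a difference of −2.77 (SE 0.40, adjusted p = 0.000464). Both genes belong to the 14 root markers, of which 5 were called negative and none positive, with a median of −0.87, or 2 negative and a median of −0.54 with the common slope. Leaving out ap1/cal SNP replicate 1 gave a median of −0.58, and leaving out Col-0 Mock replicate 1 or 3 or any ap1/cal Mock replicate gave 3 calls. All 14 root markers had lower means in ap1/cal SNP than in Col-0 SNP, while 8900 of all 20623 tested genes had a higher mean there. The root hair regulator RHD6 and LRX1 were called too, but these calls were lost without 5 and 10 of the 12 libraries. SCR, a regulator of the root endodermis, was called at −0.67 (adjusted p = 0.00693), a call lost without ap1/cal Mock replicate 3. The Casparian strip genes CASP1 (0.07) and CASP2 (0.24) of the same tissue were not called. The part of root cell types in the results on cell walls and iron was not tested.

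Of 13 iron deficiency genes 3 were called negative and 1 positive, with a median of −0.04 that ran from −0.264 to 0.199 when 1 library was left out. IRT1, the iron transporter of the root epidermis, had 354, 217 and 476 in the Mock and 195, 238 and 246 in the SNP libraries of Col-0, and 249, 406 and 268 and 60.5, 31.5 and 67.2 in ap1/cal. Its Mock libraries overlapped, its ap1/cal SNP libraries were all lower, and the difference was −1.99 (SE 0.43, limma adjusted p = 0.00556). FRO2, the ferric reductase, had −1.59 (adjusted p = 0.00299), and FRU, the factor that activates both, had −0.87 (adjusted p = 0.0171). IRT2 fell from 161, 99.7 and 123 to 22.7, 14.1 and 17.5 in Col-0, and in ap1/cal from 209, 211 and 159 to 1.03, 3.31 and 0, which is at or under the floor. Its fitted difference was −3.80 (SE 0.58, adjusted p = 0.000703), and at the floor it was −2.38.

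BTS, a ubiquitin ligase that limits iron uptake, went the other way. It rose from 3769, 3701 and 3208 to 9637, 9447 and 8312 in Col-0 and from 3271, 3295 and 3097 to 12100, 14677 and 14183 in ap1/cal, with all ap1/cal SNP libraries higher and a difference of 0.72 (SE 0.13, limma adjusted p = 0.00172). None of the 4 ferritins was called by limma, with 2 at an unadjusted p below 0.05, and their median difference was 0.18, which turned to −0.03 with library-size scaling. The block within ap1/cal gave 1 positive call. NAS2, a nicotianamine synthase that makes a chelator of iron, rose from 63.9, 62.0 and 115 to 216, 194 and 244 in Col-0 and fell from 106, 139.8 and 108 to 63.6, 63.0 and 80.6 in ap1/cal. The SNP libraries did not overlap, and the difference was −2.25 (SE 0.31, adjusted p = 0.000352).

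The genes that fell most strongly in excess included 3 neighbouring mannose-binding lectin genes on chromosome 1. AT1G52050 fell from 336, 434 and 343 to 129, 37.4 and 142 in Col-0 and from 371, 571 and 381 to 4.10, 6.63 and 7.68 in ap1/cal. Every ap1/cal SNP library was lower than every Col-0 SNP library while the Mock libraries overlapped, and the difference was −3.91 (SE 0.57, limma adjusted p = 0.000465). AT1G52060 had −3.55 (SE 0.52, adjusted p = 0.000509) and AT1G52070 had −3.39 (SE 0.51, adjusted p = 0.000625). AT5G54370, annotated as a late embryogenesis abundant-like protein, had −3.41 (SE 0.49, adjusted p = 0.000435).

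Some genes outside the lists rose less in ap1/cal. AT1G56660, whose product is annotated only by a domain, had 36.7, 63.4 and 39.5 in the Mock and 583, 493 and 639.5 in the SNP libraries of Col-0, and 198, 142 and 201 and 279, 299.8 and 398 in ap1/cal. It was higher in ap1/cal in Mock and lower in SNP, in all libraries, with a difference of −2.78 (SE 0.30, limma adjusted p = 9.42e-05). The legume lectin AT1G53080 had −2.87 (adjusted p = 0.000428) and AT5G28610 had −2.67 (adjusted p = 0.00251). AT3G12910, a NAC domain regulator, was at or under the floor in Mock in both genotypes, rose at least 118-fold in Col-0 and at least 21.3-fold in ap1/cal, and had a fitted difference of −2.92 (adjusted p = 0.0161).

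Only 113 genes fell in both genotypes and less in ap1/cal. YUC2, a flavin monooxygenase of auxin synthesis, fell from a mean of 111 to one of 9.35 in Col-0, while ap1/cal went from 89.6 to 18.9. Its ap1/cal SNP libraries were all higher, and the difference was 1.25 (SE 0.24, limma adjusted p = 0.00256). CYP71B4 (1.51, adjusted p = 0.00682), a cytochrome P450, AT2G15880 (1.30, adjusted p = 0.0175), with leucine-rich repeats, and the thaumatin-like AT1G20030 (1.14, adjusted p = 0.0011) were the others with stable calls. AT2G25690 had 1.26 (adjusted p = 0.0431), a call lost without 9 of the 12 libraries and with the block within ap1/cal.

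Opposite changes that were called in both genotypes were rare, with 21 genes. DIC2, a mitochondrial dicarboxylate carrier, had 646, 663 and 407 in the Mock and 1452, 1544 and 1759 in the SNP libraries of Col-0, and 1222, 724 and 943 and 557, 326 and 520.2 in ap1/cal. It was higher in ap1/cal in Mock and lower in SNP in every library, with a difference of −2.54 (SE 0.33, limma adjusted p = 0.000232). PUB29, a U-box ubiquitin ligase, rose from 215, 203 and 170.4 to 396, 388 and 412 in Col-0 and fell from 229, 250.1 and 216 to 118, 82.8 and 99.8 in ap1/cal, a difference of −2.24 (SE 0.19, adjusted p = 6.42e-05). ABCG20, a transporter for suberin precursors, showed the reverse. It fell from 296, 256 and 242 to 169, 137 and 75.8 in Col-0 and rose from 224, 222 and 184 to 416, 547 and 509 in ap1/cal, a difference of 2.34 (SE 0.32, adjusted p = 0.000353). The lectin receptor kinase AT4G29050 had −2.44 (adjusted p = 0.0037).

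Several functions gave few or no calls in limma at the same thresholds. None of 50 nuclear photosystem and light-harvesting genes was called (median difference −0.01), none of 19 genes of RNA-directed DNA methylation (0.02), none of 6 genes of NO production and scavenging (0.03) and none of 17 chlorophyll synthesis genes (−0.29). At an unadjusted p below 0.05 limma gave 4, 1, 1 and 9 of these, and the block within ap1/cal called 1 of the 19 DNA methylation genes. For the chlorophyll synthesis genes, library-size scaling gave 3 negative calls and a median of −0.5, and leaving out ap1/cal SNP replicate 1 gave 2 negative calls. Of 256 nuclear ribosomal protein genes 5 were called, all positive, with a median of 0.07, and the number ran from 3 without ap1/cal Mock replicate 2 to 8 without Col-0 Mock replicate 2. The block within ap1/cal gave 5 positive and 1 negative. AGO4, the effector of RNA-directed DNA methylation, averaged 1174 and 927 in Col-0 and 1214 and 863 in ap1/cal (Mock, then SNP), with a difference of −0.14 (SE 0.12, adjusted p = 0.43). The nitrate reductase genes NIA1 (−0.04, SE 0.23) and NIA2 (0.19, SE 0.17), NOA1 (−0.27, SE 0.14) and the cytokinin response regulator ARR7 (0.36, SE 0.15) were not called either. Type-A response regulators, the family of ARR7, did give calls, 1 positive and 2 negative of 9 (33.3%, against 14.6% of all tested genes). Their median was −0.37, or 0.04 over the 6 left by a filter at 50.

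Transcripts of the organelle genomes, which are mostly not polyadenylated and were carried through poly(A) selection, had a high median but few calls. Over 81 chloroplast-encoded transcripts the median difference was 1.14, with 8 called positive. Col-0 Mock replicate 1 was the highest Col-0 Mock library in 75 of the 81, against 8333 of all 20623 tested genes. Leaving out Col-0 SNP replicate 3 gave 2 positive calls, leaving out ap1/cal Mock replicate 3 gave 52, and the block within ap1/cal gave 21. Over 55 mitochondrial transcripts the median was 0.56, with 1 call, or 12 without ap1/cal Mock replicate 3 and 4 with the block.

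Whether the genotypes stood apart before or after SNP differed between functions. Among the 1221 genes that rose more, all ap1/cal SNP libraries were above all Col-0 SNP libraries in 1149. In 493 of them all Col-0 Mock libraries were above all ap1/cal Mock libraries. Over all 20623 tested genes these counts were 4957 and 3393. The 1221 genes were chosen by their difference in these same libraries, so separation in these directions was favoured by the choice. The Mock distance was the larger in 214 of the 1221. In 178 of these 214 Col-0 Mock replicate 1 was the highest Col-0 Mock library, against 584 of the other 1007. It was the highest Col-0 Mock library in 8333 of all 20623 tested genes. Among the 809 genes that fell more, all ap1/cal SNP libraries were below all Col-0 SNP libraries in 757. The Mock distance was the larger in 26 of them. Over all 20623 tested genes these counts were 5777 and 5611, and the 809 genes too were chosen by their difference. The part of Col-0 Mock replicate 1 in the genes that rose more was not tested beyond leaving it out, which gave 1401 positive and 1260 negative calls.

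**Figure D5:**
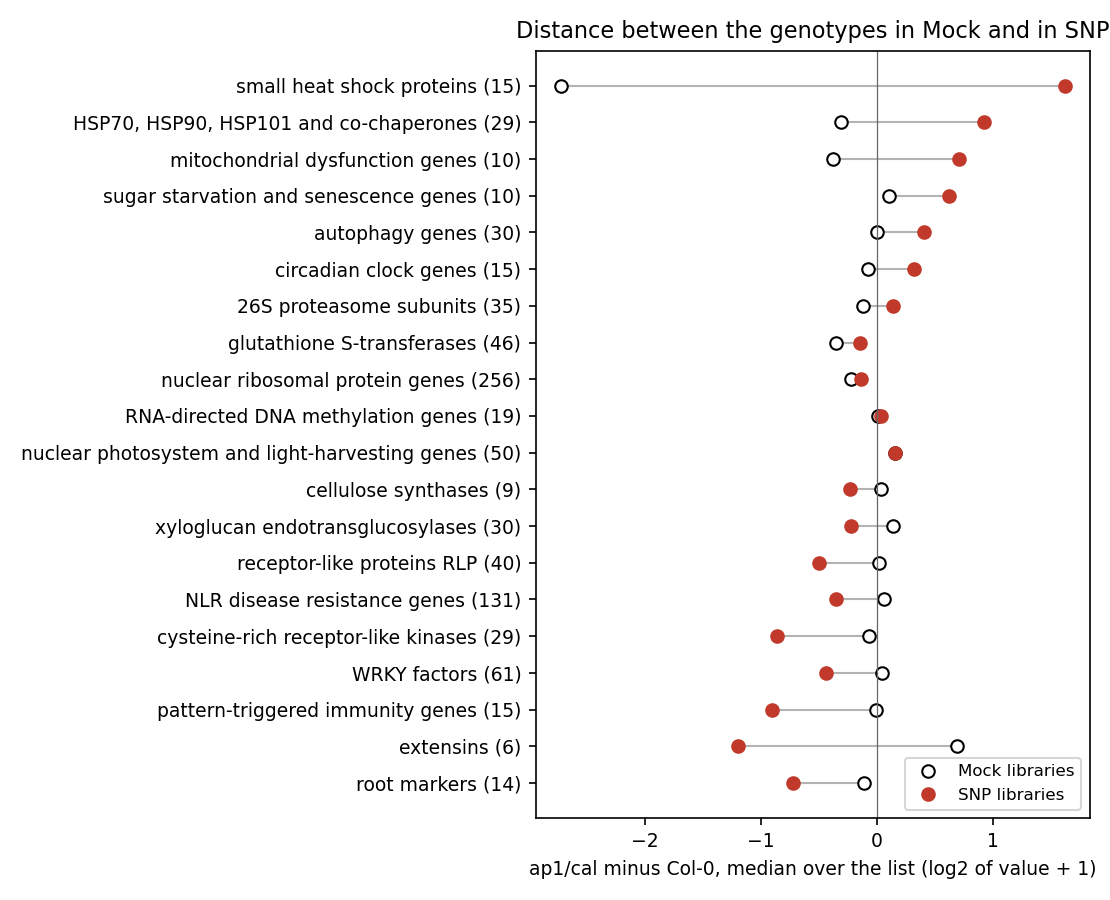
For each gene list at the left (number tested in parentheses) the x axis gives the median of ap1/cal minus Col-0 on the scale log2(value + 1), as an open circle for the Mock libraries and a filled circle for the SNP libraries. The small heat shock protein genes stand at −2.72 in Mock and 1.62 in SNP, and the pattern-triggered immunity genes at 0.00 in Mock and −0.90 in SNP; the genotypes' tables were normalized separately.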

How the data were processed

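Messenger RNA of 12 seedling libraries was selected by poly(A) and made into strand-specific libraries, per the labels. Per the submitters' processing notes the authors used FastQC, STAR, DESeq2 and the TAIR10 genome. Their versions, the counting tool and the use of strand are not given in the sources used here. The deposited values are a signal that the authors scaled by 1 size factor per library, separately for each genotype, although the tables are called raw counts. Low values came in steps worth 1 read, but only 66.8% to 70.2% of low values in a library were whole steps, so no count test was run.

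The 2 tables were joined on gene ID with no further scaling. Genes for which 3 or more libraries reached a value of 10 entered 1 limma fit (limma 3.58.1, R 4.3.3) of 4 groups on log2(value + 1), with a mean-variance trend and Benjamini-Hochberg adjustment over all 20623 genes. A call needed a fold of 1.5 or more and an adjusted p under 0.05. The scripts were checked on simulated data. The library sums of values were 25668100 to 45573900. Every table column was matched to 1 sample.

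Same-numbered Mock and SNP libraries correlated at 0.121 to 0.167 in their deviations from the group means in ap1/cal, where other pairs gave −0.138 to 0.014, and at −0.055 to 0.064 in Col-0. Over all groups same-numbered pairs ran from −0.173 to 0.190, and no label says that a number marks a shared batch, so the reported fit has no block. A replicate block within ap1/cal was added after seeing the data. The alternatives were other scalings, pseudocounts, filters and thresholds, no trend, quality weights, a replicate block, a length and GC trend, a common slope and leaving out each library.

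The members and lists were chosen with earlier results of these data known. From each of the 5 patterns the 5 genes with the largest difference were named that were called in both genotypes, averaged at least 50 and had no overlapping gene or shared 75-base windows. From each list up to 3 called members with the largest difference, or its regulators, were named, with AGO4, ARR7, NIA1, NIA2 and NOA1. Further list members were picked after their values were seen, among them AOC1, AOC2, LOX2, HSP21, HSP18.2, HSP90.1, Hop1, BAK1, BIK1, RBOHD, WRKY18, WRKY31, WRKY33, WRKY40, WRKY72, RPM1, AT1G63860 and RLP31. Gene names, overlaps and upstream sequences came from the RefSeq annotation of TAIR10.1, and the presence of roots was read from 14 markers.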

Additional observations from a re-analysis of the deposited data

Results flagged for a closer look

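The test of the difference itself, in limma, separated the SNP responses of the 2 genotypes for 3006 of 20623 genes. The genes below were named by rule from the called genes, and each value is the log2 difference of the responses, ap1/cal minus Col-0. Among genes that rose more in ap1/cal the values were 5.81 for AT1G53540, 5.68 for ABCG40, 5.58 for ELI3-2, 5.35 for HSP17.6II and 5.17 for HSP17.6A. Those that fell more were AT1G52050 at −3.91, IRT2 at −3.80, AT1G52060 at −3.55, AT5G54370 at −3.41 and AT1G52070 at −3.39. Those that rose less were WRKY30 at −2.94, AT3G12910 at −2.92, AT1G53080 at −2.87, AT1G56660 at −2.78 and AT5G28610 at −2.67. CYP71B4 at 1.51, AT2G15880 at 1.30, AT2G25690 at 1.26, YUC2 at 1.25 and AT1G20030 at 1.14 fell less. DIC2 at −2.54, AT4G29050 at −2.44, ABCG20 at 2.34, NAS2 at −2.25 and PUB29 at −2.24 changed in opposite directions.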

How the results depend on the processing

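The 3006 calls became 4817 at any fold, 1312 at a fold of at least 2 and 338 when tested against a fold of 1.5. The 2030 calls of the same direction and greater size in ap1/cal became 3283, 877 and 268 under these thresholds, and 899 with the Col-0 responses multiplied by the common slope, then among 1227 positive and 1312 negative calls. The 338 called list members became 179 at a fold of 2 and 68 in the test against 1.5. List medians moved as follows. The small heat shock proteins had 3.64 with a pseudocount of 10 and 3.03 with the common slope. The chaperones had 1.12 with upper-quartile scaling, 1.01 with library-size scaling and 0.75 with the common slope, and the mitochondrial dysfunction genes 0.30 with that slope. The pattern-triggered immunity genes had −1.13 with library-size scaling, −0.78 with a pseudocount of 10 and −0.75 with a filter at 50. The WRKY factors had −0.68 with upper-quartile scaling, −0.78 with library-size scaling, −0.46 with a pseudocount of 10 and −0.63 with the common slope, and the NLR genes −0.55 and −0.64 with the 2 scalings. Leaving out 1 library at a time gave 2373 (without Col-0 SNP replicate 3) to 3408 calls (without Col-0 Mock replicate 2), and medians of 3.67 to 5.02 for the small heat shock proteins, 0.75 to 1.33 for the mitochondrial dysfunction genes, −1.01 to −0.75 for the pattern-triggered immunity genes and −0.65 to −0.49 for the WRKY factors. The replicate block gave 3029 calls, 2904 of them among the 3006, and the block within ap1/cal, chosen after seeing the data, 1584 positive and 1511 negative calls, 2924 of them among the 3006. Over 212 single genes 5398 of 5909 values kept direction and call, 503 lost the call, 4 (all BCS1) gained it and 4 reversed. The reversed ones, all with the common slope, were CCA1 at −0.0089, ABI2 at −0.17, LSU1 at −0.37 and LSU2 at −0.13. Precision was limited by 22483300 to 59714500 reads per library and 3 libraries per group. The cause of these moves was not tested.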

Other observations

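Further families stood apart in the same way from all tested genes, of which 7.6% were called positive and 6.97% negative. They were picked after their values were seen, by the product names of the annotation, and are descriptions. Class III peroxidases, which oxidise phenolic compounds in the wall, gave 20 negative and no positive calls of 50 (median difference −0.58). AT3G49960 averaged 331 and 26.3 in Col-0 and 513 and 8.69 in ap1/cal (Mock, then SNP), a difference of −2.52 (limma adjusted p = 0.0309). Proteins with a cysteine- and histidine-rich C1 domain gave 21 negative and no positive calls of 97, with a median of −0.69. Genes annotated to the plant invertase/pectin methylesterase inhibitor superfamily gave 14 negative and 3 positive calls of 43. That is the name of the superfamily, and its members were not sorted by function. AT1G62760 among the positive ones reached a mean of 560.5 in SNP in ap1/cal against 124 for Col-0, a difference of 2.20 (adjusted p = 8.43e-05). Exostosin family genes gave 6 negative calls of 24 and VQ motif genes 6 negative and 2 positive of 25. The positive share of the VQ motif genes (8.0%) was near that of all tested genes.

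On the positive side stood 17 of 86 DnaJ genes, co-chaperones of HSP70, with 2 negative calls and a median of only 0.04. AT2G20560 reached a mean of 32364 in SNP in ap1/cal against 16568 for Col-0 (difference 1.54, limma adjusted p = 0.000131) and shares its locus with an opposite-strand gene. Ubiquitin-like proteins, some of which are also autophagy genes, gave 7 positive and no negative calls of 25. SAY1 averaged 619 and 1908 in Col-0 and 614 and 5688 in ap1/cal (Mock, then SNP), a difference of 1.57 (SE 0.16, adjusted p = 8.43e-05). Cytochrome P450 genes of subfamily CYP71B gave 5 positive and no negative calls of 20 with a median of 0.47.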
